A study of Homo sapiens with 9 samples.

Results

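The insulin-like growth factor (IGF) family was described here through 10 genes, chosen by gene symbol from the 58233 gene IDs of the tables and not by their values. They are the ligands IGF1 and IGF2, the receptors IGF1R and IGF2R, and the binding proteins IGFBP2, IGFBP3, IGFBP4, IGFBP5, IGFBP6 and IGFBP7. All 10 symbols were found, and 9 passed the filter on low counts. IGF2 did not. The RNA came from TC32 cells, an established line derived from an Ewing sarcoma that carries the EWSR1-FLI1 fusion gene, grown with 10% fetal bovine serum and sequenced as polyadenylated RNA. The 9 libraries form 3 groups of 3. In the vehicle group, cells received PBS and then DMSO. Wnt3a cells received the Wnt ligand Wnt3a, for 28 h in all, and DMSO for the last 24 h. Inhibitor cells, as they are called below, had the same Wnt3a treatment and SB-505124 in place of DMSO in those 24 h. SB-505124 blocks the kinases of the type I receptors for TGF-β and activin. All groups are 1 cell line, no group received the inhibitor without Wnt3a, and nothing in the labels says that replicates were separate cultures. The spread that p-values rest on is therefore that between libraries and may be only technical.

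IGF1 and IGF2 are secreted proteins that bind IGF1R, a receptor tyrosine kinase that signals through docking proteins to the PI3K and MAP kinase pathways. IGF2R, also the cation-independent mannose 6-phosphate receptor, takes up IGF2 for degradation and carries lysosomal enzymes, and is not known as a kinase. The binding proteins hold IGFs outside the cell and can restrain or prolong their action, until proteases such as PAPP-A or HTRA1 cut them. IGFBP7 binds IGFs weakly and is often set apart from the others. IGF signalling is known to support the growth of Ewing sarcoma, and IGFBP3 is known as a gene that the fusion protein represses.

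Depth was 28844348 to 42976799 counts per library. AXIN2, a feedback gene of canonical Wnt signalling, was higher with Wnt3a than with vehicle by 2.61 on the log2 scale, and PMEPA1, a TGF-β target, was lower with the inhibitor than with Wnt3a by a log2 fold change of -1.79. SMAD7, another TGF-β target, did not pass the test in that comparison (-0.27, edgeR adjusted p = 0.157). Of 11 Ewing sarcoma markers, 11 were above 1 TPM (transcripts per 1000000 transcripts) in all libraries, and their summed TPM was 4305 to 5409 in vehicle, 4117 to 5098 in Wnt3a and 2751 to 3667 in inhibitor cells. Of 9 fibroblast markers, 5 were above 1 TPM in all libraries, with summed TPM of 397 to 603, 484 to 737 and 290 to 304. With the inhibitor against Wnt3a, 5 of these 9 fell and 1 rose, and of the 11 Ewing sarcoma markers 4 fell and 0 rose. Of all genes tested, 25.9% fell and 24.5% rose there. In the same comparison 4 binding protein genes fell, and the part of either marker list in that result was not tested. Endothelial, leukocyte, epithelial and hepatocyte markers summed to at most 8.65 TPM in any library, with CD3E and SERPINA1 at 0. On the second principal component, with 14.7% of the variance, inhibitor replicate 1 was far from the other two of its group (-66.9 beside 26.9 and 24.5), so the family's results on the inhibitor and the pathway counts are also given without replicate 1. In bulk RNA, fewer cells of a type and less RNA per cell cannot be told apart.

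With the inhibitor, 4 of the 6 binding protein genes fell, while neither receptor nor IGF1 passed the test against Wnt3a. In inhibitor against Wnt3a, IGFBP2, IGFBP3, IGFBP5 and IGFBP7 fell, and 0 of the 9 tested genes rose (1 at an unadjusted p under 0.05, IGFBP6, and 0 also by DESeq2 and limma-voom). Against vehicle, IGFBP2, IGFBP3, IGFBP5 and IGFBP7 fell again and IGF2R rose. Wnt3a against vehicle changed 0 of the 9 by edgeR, with 3 at an unadjusted p under 0.05, and DESeq2 called 1 and limma-voom 0. The test was the quasi-likelihood F test of edgeR with Benjamini-Hochberg adjustment over the 17880 genes that passed the filter, and a gene was called at an adjusted p under 0.05. By that rule 0.419% of all genes changed with Wnt3a against vehicle (0.397% higher and 0.0224% lower), 50.4% with the inhibitor against Wnt3a (25.9% lower and 24.5% higher) and 49.7% with the inhibitor against vehicle (24.8% lower and 25% higher). The share of the family that changed with the inhibitor, 4 of 9 and 5 of 9, was thus near that of all genes. The median log2 fold change of the 9 genes was 0.04, -1.0 and -0.27 in these 3 comparisons, beside 0.011, -0.057 and -0.04 over all genes. The comparisons share libraries pairwise, so their values are not independent.

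**Figure D1:**
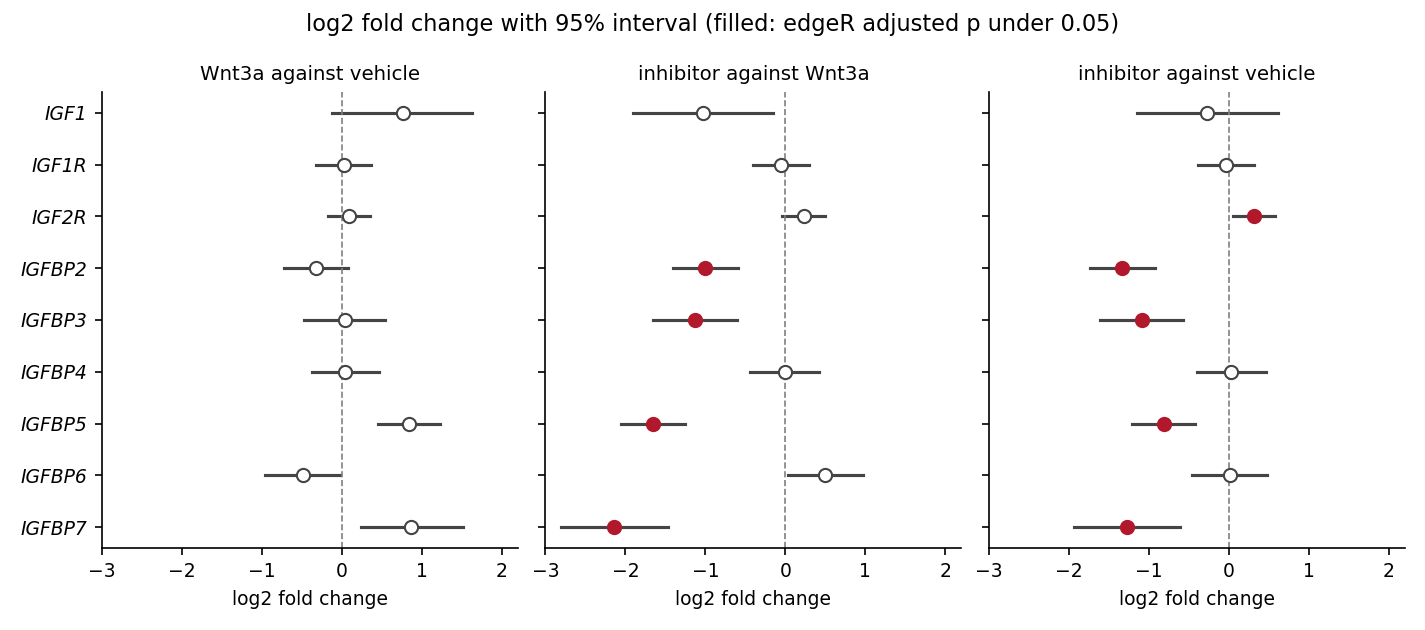
The log2 fold change of each of the 9 tested genes (horizontal axis) with its 95% interval (line), in the 3 comparisons. Filled points passed the edgeR threshold; these are IGFBP2, IGFBP3, IGFBP5 and IGFBP7 on the low side in both inhibitor comparisons and IGF2R on the high side against vehicle.

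Per length of transcript, IGFBP2 RNA was the most abundant of the family in each group, with a mean of 1019 ± 275 TPM in vehicle cells (SD, n = 3). IGFBP4 followed at 147 ± 20.9 TPM and IGF2R at 48.1 ± 2.02 TPM, and these 3 did not overlap one another. IGFBP7 (17.8 ± 6.02), IGFBP5 (15.1 ± 2.29), IGF1 (13.6 ± 5.73) and IGFBP3 (11.6 ± 0.954 TPM) came next in vehicle cells, and each overlapped its neighbour in that order. IGFBP6 (9.92 ± 2.17) and IGF1R (9.71 ± 1.42 TPM) overlapped each other and IGFBP3. IGF2 was listed at 0 to 0.01 TPM. In inhibitor cells the first 3 kept their places, at 352 ± 16.5, 125 ± 36.6 and 51.0 ± 9.30 TPM, and IGF1 (16.0 ± 8.66) and IGFBP6 (8.28 ± 0.236 TPM) followed. IGFBP5 (7.06 ± 1.88), IGFBP7 (6.51 ± 0.888) and IGFBP3 (4.52 ± 1.5 TPM) stood below IGF1R (7.93 ± 1.19 TPM), with IGFBP5 and IGFBP7 overlapping it. In Wnt3a cells the order was that of vehicle but for IGF1R (10.0 ± 2.42) and IGFBP6 (7.53 ± 0.907 TPM), which overlapped and traded places.

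**Figure D2:**
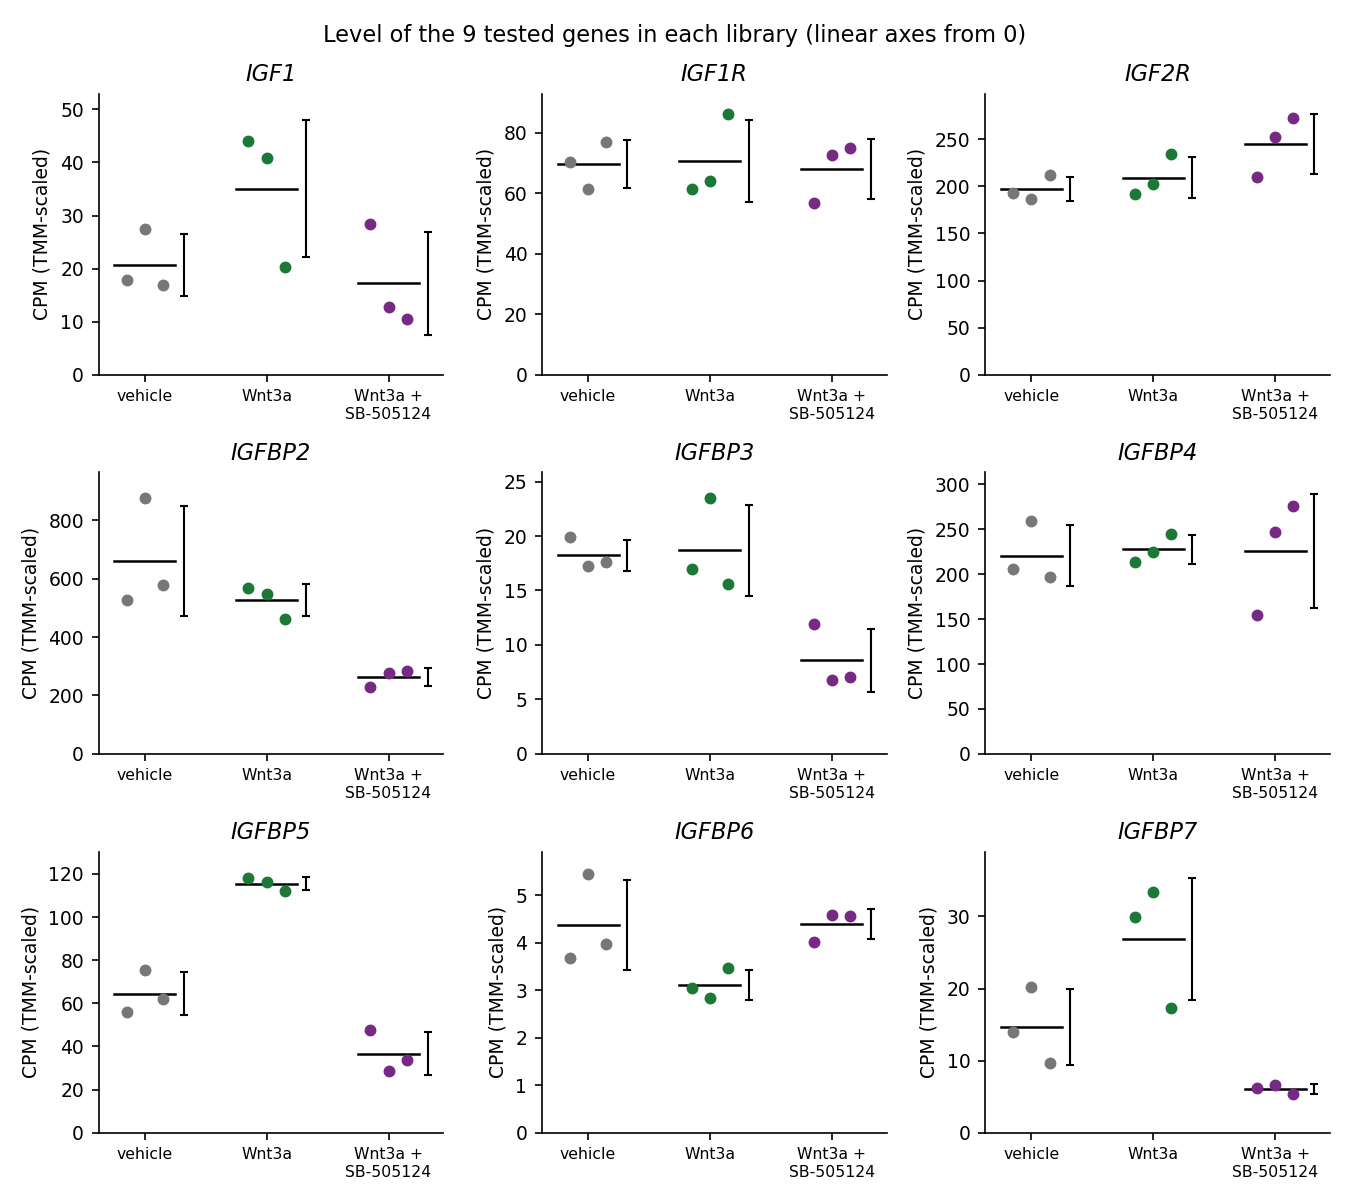
TMM-scaled CPM (counts per 1000000 counts, linear axes from 0) of each tested gene in the 9 libraries, with the mean of each group (bar) and its SD (error bar at the right of each group). The 3 inhibitor libraries lie below all others for IGFBP2, IGFBP3, IGFBP5 and IGFBP7, and on both sides of the group means of the others for IGF1R and IGFBP4.

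Among the ligands, IGF1 RNA was present in every library and IGF2 RNA was close to 0. IGF1, the secreted growth factor that in the body is made largely by the liver, lies on the minus strand at chr12:102395874-102481744 (hg38). Values per gene below are counts per 1000000 counts of a library, scaled by TMM factors (CPM). IGF1 was at 17.9, 27.4 and 16.9 CPM in vehicle replicates 1 to 3, at 44.1, 40.8 and 20.3 with Wnt3a and at 28.4, 12.7 and 10.5 in inhibitor cells. Wnt3a replicates 1 and 2 stood above all other libraries, but each pair of groups overlapped. The log2 fold change was 0.76 ± 0.392 (SE) for Wnt3a against vehicle (95% interval -0.12 to 1.63, edgeR adjusted p = 0.742). For inhibitor against Wnt3a it was -1.03 ± 0.397 (edgeR adjusted p = 0.0519), and it passed the threshold in 7 of 20 alternative analyses. Without inhibitor replicate 1 it was -1.61, with an edgeR adjusted p of 0.00407.

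The estimated effective length of IGF1, the mean transcript length that RSEM weights by the estimated abundance of each transcript, differed between the groups without overlap. It was 2456, 1927 and 2431 bases in vehicle replicates 1 to 3, 2601, 2959 and 2801 bases with Wnt3a, and 1288, 1223 and 1282 bases in inhibitor cells. All inhibitor libraries were thus shortest and all Wnt3a libraries longest. The inhibitor mean was 0.453 times the Wnt3a mean. Of all genes tested, 12.9% had all inhibitor libraries below all Wnt3a libraries in effective length and 12.5% had them below all vehicle libraries, and 82 (0.459%) did so with a mean at most 0.5 times as long. A higher length with Wnt3a than with vehicle in all libraries was found in 3.57% of genes. GENCODE release 29 lists 7 IGF1 transcripts of 363 to 7359 bases, and all but the longest are at most 1097 bases.

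The count and the level per length of IGF1 gave different pictures. In TPM, which divides by the effective length, IGF1 was at 10.5, 20.2 and 10.1 in vehicle cells, 25.4, 21.7 and 10.7 with Wnt3a and 25.9, 12.2 and 9.88 in inhibitor cells. All 3 groups overlapped. With an offset for effective length in the edgeR model, the difference between inhibitor and Wnt3a was 0.07 on the log2 scale (edgeR adjusted p = 0.9). Which transcripts made up the difference in length was not analysed here, and the cause of the difference in counts was not tested. HELLPAR, a long noncoding RNA on the opposite strand of the IGF1 locus, had 11.1 to 105 expected counts per library, and the strand setting of the counting is not given in the sources used here.

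**Figure D3:**
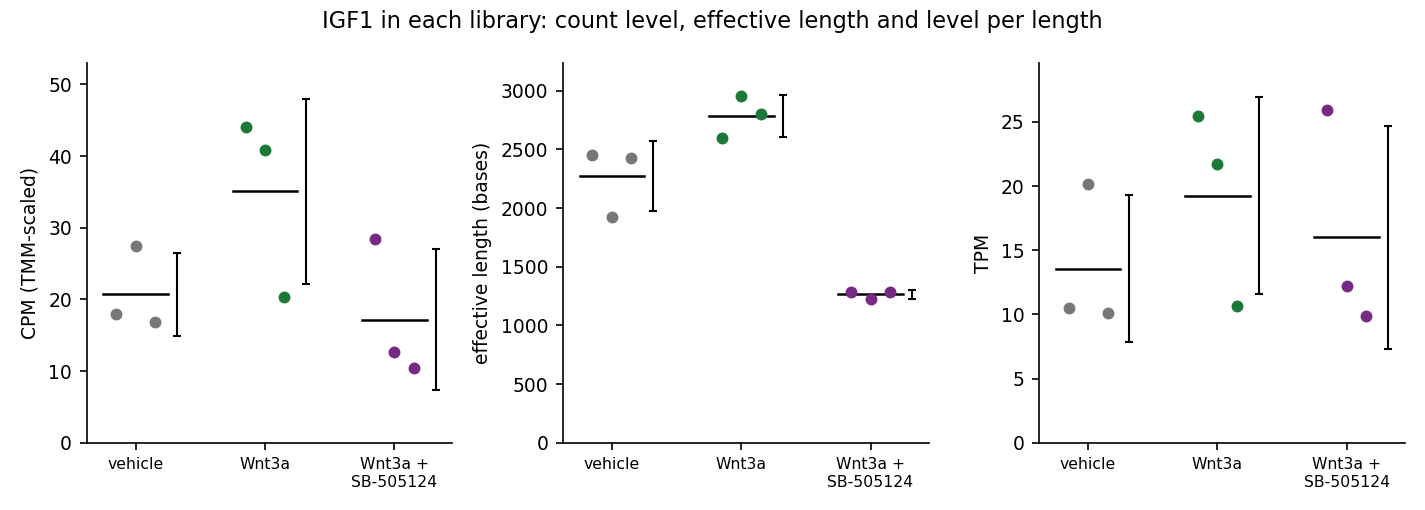
IGF1 in each of the 9 libraries, as CPM (left), effective length in bases (middle) and TPM (right), all on linear axes from 0, with group means (bars) and SD (error bars). The effective lengths of the 3 inhibitor libraries lie between 1223 and 1288 bases, below all others, while the TPM values of the groups overlap.

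IGF2, the fetal growth factor of an imprinted locus, was measured at chr11:2129112-2149603 on the minus strand (hg38). It had 0, 1.02 and 1.0 expected counts in vehicle replicates, 2.04, 4.0 and 5.0 counts with Wnt3a and 0, 1.0 and 0 in inhibitor cells. The Wnt3a libraries held the most, and no library held more than 5 counts. Rounded and summed, Wnt3a had 11 counts against 2 in vehicle. Adjusted for the summed depth of the groups, the ratio was 5.05, with an exact Clopper-Pearson 95% interval of 1.10 to 46.8 that covers counting error only. IGF2 took part in no test of the reported edgeR fit. The alternatives with all genes of at least 1 count and with DESeq2 took it in, and neither called it for Wnt3a against vehicle. A count of 0 allows up to 3 counts, which is 0.0873 per 1000000 counts in vehicle replicate 1, and 0.104 and 0.086 in inhibitor replicates 1 and 3. GENCODE has 2 entries named IGF2, and only the one at this position was analysed here.

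Of the receptors, IGF1R passed no test, and IGF2R rose in inhibitor against vehicle alone, a call that most alternatives did not keep. IGF1R, the signalling receptor, spans chr15:98648539-98964530 on the plus strand. It was at 70.3, 61.4 and 77.1 CPM in vehicle cells, 61.3, 64.2 and 86.3 with Wnt3a and 56.8, 72.7 and 75.1 in inhibitor cells. No group stood apart from another. The 95% intervals of the log2 fold change were -0.33 to 0.37 for Wnt3a against vehicle, -0.40 to 0.30 for inhibitor against Wnt3a and -0.38 to 0.32 for inhibitor against vehicle. Without inhibitor replicate 1 the log2 fold change was 0.06 against Wnt3a and 0.09 against vehicle, with edgeR adjusted p of 0.759 and 0.653.

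IGF2R, at chr6:159969099-160113507 on the plus strand, was at 193, 187 and 212 CPM in vehicle cells, 192, 202 and 234 with Wnt3a and 210, 252 and 273 in inhibitor cells. Inhibitor replicates 2 and 3 were the highest of all, and inhibitor replicate 1 lay below the highest library of both other groups. Against vehicle the log2 fold change was 0.31 ± 0.118 (edgeR adjusted p = 0.0494), and against Wnt3a it was 0.23 ± 0.118 (edgeR adjusted p = 0.134). The first of these calls held in 5 of 20 alternatives and ended in the other 15: the adjusted p was 0.525 with library totals alone as the scale (0.08 on the log2 scale) and 0.677 with limma-trend on log2(TPM + 1), and 0.118, 0.128, 0.0585, 0.0579, 0.0648, 0.121 and 0.174 without vehicle replicates 1, 2 and 3, Wnt3a replicates 1 and 2, and inhibitor replicates 2 and 3. Without inhibitor replicate 1 the log2 fold change was 0.41 against vehicle and 0.32 against Wnt3a, with edgeR adjusted p of 0.0082 and 0.0253. In TPM, IGF2R was at 41.4 to 60.0 with the inhibitor and 45.8 to 49.7 with vehicle, which overlap. Per length, IGF2R was 4.06 to 7.71 times as abundant as IGF1R over the 9 libraries. A processed pseudogene on the same strand within IGF2R, AL353625.1, had 35.3 to 87.8 expected counts.

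Among the binding proteins, 4 of 6 genes fell with the inhibitor in both comparisons. IGFBP2, which binds IGF2 with preference and is abundant in fetal tissue and in cerebrospinal fluid, lies at chr2:216632828-216664436 on the plus strand. IGFBP2 was at 528, 877 and 579 CPM in vehicle cells, 569, 546 and 463 with Wnt3a and 227, 276 and 284 in inhibitor cells. All inhibitor libraries lay below all others, and vehicle replicate 2 stood above the rest. The level was 2.0-fold lower than with Wnt3a (log2 fold change -1.0 ± 0.184, edgeR adjusted p = 0.00132) and 2.52-fold lower than with vehicle (-1.33 ± 0.185, edgeR adjusted p = 0.000249). Wnt3a and vehicle overlapped, at -0.33 (edgeR adjusted p = 0.774). Of all genes, 30.3% had all inhibitor libraries below all Wnt3a libraries in CPM, and 29.8% below all vehicle libraries.

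IGFBP5, bound by the extracellular matrix and known from muscle and bone, is the neighbour of IGFBP2 on chromosome 2, where both genes end toward each other. It spans chr2:216672105-216695525 on the minus strand. IGFBP5 was at 56.0, 75.5 and 61.9 CPM in vehicle cells, 118, 116 and 112 with Wnt3a and 47.9, 28.5 and 33.8 in inhibitor cells. None of the 3 groups overlapped another, with Wnt3a highest and the inhibitor lowest. The level with the inhibitor was 3.15-fold lower than with Wnt3a (log2 fold change -1.65 ± 0.181, edgeR adjusted p = 6.3e-05) and 1.76-fold lower than with vehicle (-0.81 ± 0.178, edgeR adjusted p = 0.00373). Wnt3a was higher than vehicle by 0.84 ± 0.177 on the log2 scale (95% interval 0.45 to 1.23), which did not pass the threshold (edgeR adjusted p = 0.103). It passed in 4 of 20 alternatives: with all genes of at least 1 count (adjusted p = 0.000185), with DESeq2 (adjusted p = 0.00129), with only the 2 groups (adjusted p = 0.0378) and without inhibitor replicate 1 (adjusted p = 0.014). All Wnt3a libraries lay above all vehicle libraries in 9.34% of genes. In TPM, too, Wnt3a (26.9 to 29.6) lay above vehicle (13.0 to 17.5) and the inhibitor (5.43 to 9.11) below it.

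IGFBP2 and IGFBP5 lie side by side and both fell with the inhibitor, so the 250 bases before a start of each are shown. IGFBP3 and IGFBP7, on other chromosomes, fell as well. For Wnt3a against vehicle the neighbours differed in sign (-0.33 and 0.84 on the log2 scale), and neither was called. Whether they share control was not tested. The sequences are from RefSeq on GRCh38.p14, read in the direction of the gene, at chr2:216632578-216632827 on the plus strand for IGFBP2 and chr2:216695550-216695799 on the minus strand for IGFBP5. Capitals mark CAGAC, the short element known to be bound by SMAD proteins, or GTCTG, which is CAGAC on the other strand.
IGFBP2: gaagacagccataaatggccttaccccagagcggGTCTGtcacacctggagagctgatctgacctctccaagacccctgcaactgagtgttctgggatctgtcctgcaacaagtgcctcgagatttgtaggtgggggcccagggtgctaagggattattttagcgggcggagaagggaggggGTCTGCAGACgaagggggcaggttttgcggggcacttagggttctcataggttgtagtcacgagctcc
IGFBP5: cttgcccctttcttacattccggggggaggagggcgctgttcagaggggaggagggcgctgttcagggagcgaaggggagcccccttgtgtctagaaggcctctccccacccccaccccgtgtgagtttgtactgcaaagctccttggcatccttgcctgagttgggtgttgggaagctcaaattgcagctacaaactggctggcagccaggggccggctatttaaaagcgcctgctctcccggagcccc
The IGFBP2 window holds 3 matches, which begin 216, 68 and 63 bases before the start, the last 2 side by side. The IGFBP5 window holds none. RefSeq has 2 more starts of IGFBP2, and of their windows that at chr2:216633170-216633419 holds 0 matches and that at chr2:216659317-216659566 holds 1. The window shown is the one with the most. CAGAC or GTCTG occurs in 38.0% of the 35116 RefSeq promoter windows of that length. The table had 11 windows for 8 of the 10 genes, with no entry for IGF2 and IGFBP7, and IGFBP2 was the 1 gene with CAGAC in any. CTTTGA, the core bound by TCF and LEF factors, and GGAAGGAA, a pair of ETS cores, were on neither strand of any of the 11, beside 11.2% and 3.06% of all windows. The 3 motifs were picked after the values were seen, and a match is only a description of these letters.

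IGFBP3, the main carrier of IGFs in serum and the gene known to be repressed by the fusion, lies at chr7:45912245-45921874 on the minus strand. IGFBP3 was at 19.9, 17.2 and 17.6 CPM in vehicle cells, 17.0, 23.5 and 15.6 with Wnt3a and 11.9, 6.75 and 7.03 in inhibitor cells. The inhibitor libraries were all lowest, with replicate 1 nearest to the others. The level was 2.19-fold lower than with Wnt3a (log2 fold change -1.13 ± 0.234, edgeR adjusted p = 0.00273) and 2.13-fold lower than with vehicle (-1.09 ± 0.234, edgeR adjusted p = 0.00332). Wnt3a and vehicle overlapped, with a 95% interval of -0.47 to 0.54.

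IGFBP7, a secreted protein of vessel walls and matrix, lies at chr4:57030773-57110385 on the minus strand. IGFBP7 was at 14.0, 20.2 and 9.73 CPM in vehicle cells, 29.9, 33.4 and 17.3 with Wnt3a and 6.19, 6.66 and 5.40 in inhibitor cells. The inhibitor libraries lay below all others, and Wnt3a replicate 3 fell within the range of vehicle. The fall against Wnt3a, 4.41-fold, was the largest in the family (log2 fold change -2.14 ± 0.301, edgeR adjusted p = 0.000271), and against vehicle the level was 2.41-fold lower (-1.27 ± 0.296, edgeR adjusted p = 0.00531). Wnt3a against vehicle gave 0.87 ± 0.286 (edgeR adjusted p = 0.413), past the threshold in 1 of 20 alternatives (all genes of at least 1 count, adjusted p = 0.0206). POLR2B and IGFBP7-AS1 overlap IGFBP7 on the opposite strand, with 3045 to 8097 and 1.14 to 18.7 expected counts per library.

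The falls of IGFBP2, IGFBP3, IGFBP5 and IGFBP7 passed the threshold in 20 of 20 alternatives in both inhibitor comparisons. Without inhibitor replicate 1, their log2 fold changes against Wnt3a were -0.92, -1.45, -1.90 and -2.16, and against vehicle -1.24, -1.40, -1.05 and -1.28.

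IGFBP4 and IGFBP6 took no part in the fall. IGFBP4, the substrate of PAPP-A, lies at chr17:40443461-40457731 on the plus strand and was at 206, 260 and 197 CPM in vehicle cells, 214, 225 and 245 with Wnt3a and 154, 247 and 276 in inhibitor cells. The inhibitor libraries held both the lowest and the highest value. The 95% interval was -0.44 to 0.42 for inhibitor against Wnt3a. Leaving out inhibitor replicate 1, the log2 fold change of IGFBP4 was 0.19 against Wnt3a and 0.24 against vehicle, and neither passed the threshold. IGFBP6, which prefers IGF2, lies at chr12:53097436-53102345 on the plus strand and was the lowest of the tested genes by count, at 3.68, 5.45 and 3.97 CPM in vehicle cells, 3.04, 2.84 and 3.46 with Wnt3a and 4.02, 4.59 and 4.57 in inhibitor cells. In CPM, Wnt3a was below both other groups without overlap, as 8.19% of genes were against vehicle, and the inhibitor was above Wnt3a as 27.8% were. In TPM the groups overlapped, at 8.35 to 12.4 with vehicle, 6.59 to 8.4 with Wnt3a and 8.01 to 8.45 with the inhibitor. The log2 fold changes were -0.49 ± 0.21 for Wnt3a against vehicle (edgeR adjusted p = 0.624) and 0.50 ± 0.211 for inhibitor against Wnt3a (edgeR adjusted p = 0.0728), and neither passed the threshold. Without inhibitor replicate 1 the second was 0.55 (edgeR adjusted p = 0.0615), and it passed in 1 of 20 alternatives, without vehicle replicate 2 (edgeR adjusted p = 0.0499).

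Summed per length, the 6 binding protein genes reached 1030, 1571 and 1060 TPM in vehicle cells, 1300, 1148 and 968 with Wnt3a and 452, 508 and 549 in inhibitor cells. The inhibitor libraries were below all others. IGFBP2 made up 75.7% to 85.0% of the sum in vehicle and Wnt3a libraries and 67.3% to 74.5% with the inhibitor. IGFBP4 made up 10.9% to 17.3% and 18.6% to 28.3%. Without IGFBP2 the sum was 180.2 to 236.0 TPM in vehicle, 235.0 to 259.3 in Wnt3a and 115.2 to 179.6 in inhibitor cells. Inhibitor replicate 3, at 179.6, was thus close to vehicle replicate 3, at 180.2. TPM carries no TMM scaling. The inhibitor mean of IGFBP4 was 0.78 times that of Wnt3a in TPM and 0.99 times in CPM.

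**Figure D4:**
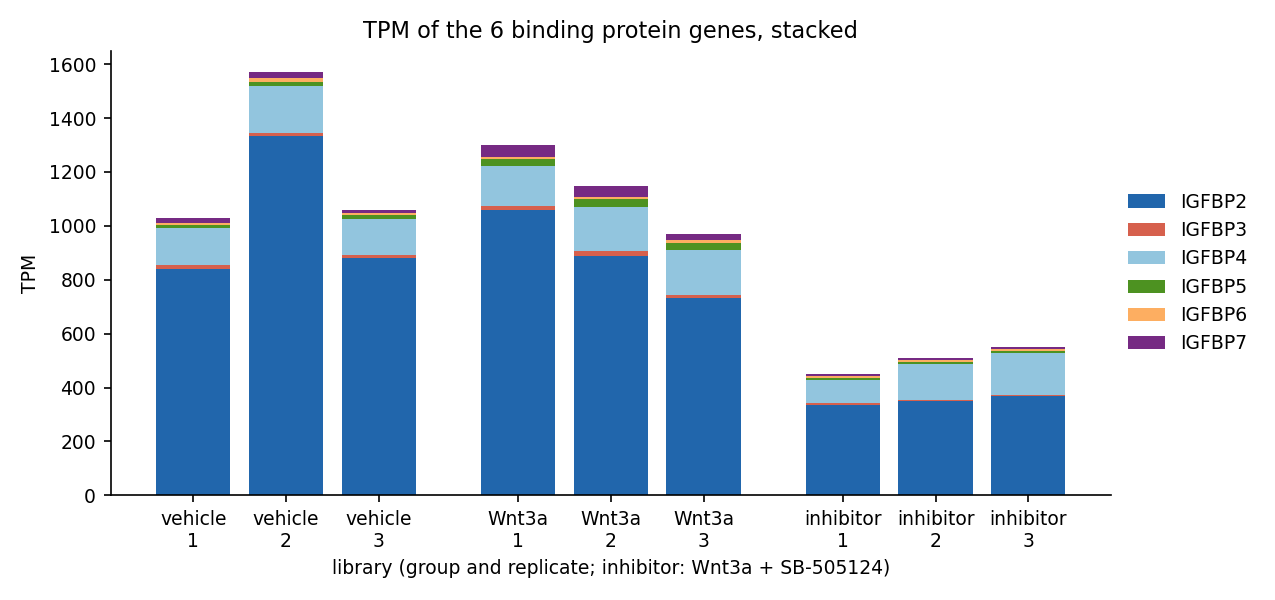
TPM of the 6 binding protein genes stacked for each of the 9 libraries, on a linear axis from 0 (inhibitor stands for Wnt3a with SB-505124). IGFBP2 is the largest block in each bar, and the 3 inhibitor bars, at 452 to 549 TPM, are lower than the other 6, at 968 to 1571 TPM.

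Replicates differed most for IGF1 and IGFBP7. The highest library was 2.72 times the lowest for IGF1 with the inhibitor and 2.08 times for IGFBP7 with vehicle. It was 1.79, 1.77 and 1.68 times the lowest for IGFBP4, IGFBP3 and IGFBP5 with the inhibitor, and 1.05 times for IGFBP5 with Wnt3a. Vehicle replicate 2 was the highest of its group for 6 of the 9 genes, and inhibitor replicate 1 the lowest of its group for 5. How often these libraries were highest or lowest over all genes was not counted.

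Around the family, 93 genes of IGF signalling were listed, of which 78 were tested. For Wnt3a against vehicle edgeR called 0, with 6 at an unadjusted p under 0.05, and DESeq2 called 2 and limma-voom 0. In inhibitor against Wnt3a 20 rose and 17 fell, and against vehicle 27 rose and 17 fell. Leaving out inhibitor replicate 1, 26 rose and 18 fell against Wnt3a, and 30 and 17 against vehicle. With library totals alone as the scale, which moves the median of all genes from -0.057 to -0.306 and from -0.04 to -0.267 on the log2 scale, these counts were 13 and 26 against Wnt3a, and 15 and 20 against vehicle. The split over all genes moved in the same way, from 4379 higher and 4634 lower to 2828 and 6425 against Wnt3a, and from 4462 and 4433 to 3061 and 6036 against vehicle. Values below are from the TMM scale. On that scale 24.5% of all genes tested were higher and 25.9% lower against Wnt3a, which are the shares to set beside the counts of each list.

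Of the related ligands, receptors and carriers, 4 of 10 were tested. Against Wnt3a edgeR called 0, with 1 at an unadjusted p under 0.05, and limma-voom called 0. DESeq2 was run on all genes with a count, so also on genes of the list outside these 4, and it called 1, on the low side. In the edgeR fit INSR, the insulin receptor, differed from Wnt3a by 0.24 on the log2 scale (edgeR adjusted p = 0.0833) and the integrin subunit ITGB3 by -0.85 (edgeR adjusted p = 0.156). Against vehicle INSR (0.37) and LRP1 (0.54), a scavenger receptor that also binds IGFBP3, rose and ITGB3 fell by a log2 fold change of -1.49. INSR and LRP1 lost the call with library totals alone, and over the 20 alternatives the adjusted p reached 0.8, 0.382 and 0.0821. LRP1 was named after its values were seen, as were MMP9, PCSK6, PAPPA, SH2B1, SOCS1, SHC1, IRS2, SOCS3, GRB14, SOS2, DEPTOR, PHLPP1 and CTCF below.

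Of 13 tested proteases of binding proteins and their inhibitors, 1 rose and 4 fell with the inhibitor against Wnt3a. CTSD, the lysosomal protease cathepsin D, rose from 117 ± 8.14 to 189 ± 24.6 CPM (SD, n = 3), a log2 fold change of 0.69. HTRA1, a secreted serine protease that cuts IGFBP5, fell from 22.1 ± 8.39 to 6.09 ± 1.40 CPM (-1.86), and the matrix metalloprotease MMP2 fell from 48.1 ± 3.11 to 28.5 ± 8.34 CPM (-0.75). MMP9 (-2.63) and PCSK6 (-0.61) fell too, with adjusted p of up to 0.0765 and 0.139 over the alternatives. PAPPA, which encodes PAPP-A, was at 98.3 ± 15.1 CPM in vehicle, 158 ± 18.8 in Wnt3a and 140 ± 7.78 in inhibitor cells. Its log2 fold change for Wnt3a against vehicle was 0.68 (edgeR adjusted p = 0.0569), and it passed the threshold in 5 alternatives, with an adjusted p of 0.0361 with library totals alone, 0.00118 with all genes of at least 1 count, 0.0467 with genes of at least 1 CPM in 3 libraries, 0.000793 with DESeq2 and 0.0415 without inhibitor replicate 1.

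Of 23 tested adaptors and docking proteins, 6 rose and 4 fell with the inhibitor against Wnt3a. PTPN1, the phosphatase PTP1B that acts on the insulin and IGF1 receptors, fell from 45.1 ± 3.95 to 25.4 ± 1.78 CPM (-0.83), and SH2B1, SOCS1 and SHC1 fell by -1.18, -1.44 and -0.38. RACK1, a ribosomal scaffold that binds IGF1R, rose from 1327 ± 145 to 2155 ± 3.66 CPM (0.70). IRS2, a docking protein of the insulin and IGF1 receptors, rose from 96.0 ± 26.2 to 206 ± 62.1 CPM (1.10), and SOCS3, a feedback inhibitor of cytokine signalling, rose by 1.12 on the log2 scale. GRB14 (2.04, at 0.623 CPM or less on average) and SOS2 (0.33) rose too. Over the alternatives the adjusted p reached 0.0529 for IRS2, 0.104 for GRB14 and 0.959 for SOS2. CBL, a ubiquitin ligase of receptor kinases, was at 53.6 ± 2.84 and 76.2 ± 1.59 CPM (0.51, edgeR adjusted p = 0.00339). The CBL call ended with library totals alone (adjusted p = 0.0669) and with limma-trend on log2(TPM + 1) (adjusted p = 0.291) and log2(TPM + 0.1) (adjusted p = 0.286), as did that of SHC1 in at least 1 alternative (adjusted p of up to 0.0764).

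The largest list was that of PI3K, AKT and mTOR, where 11 of 28 rose and 7 fell with the inhibitor against Wnt3a. PIK3R3, a regulatory subunit of PI3K, fell from 56.7 ± 2.77 to 12.0 ± 3.63 CPM (-2.24), and RPS6KB1, the ribosomal S6 kinase below mTOR, fell from 41.2 ± 1.40 to 19.8 ± 1.64 CPM (-1.06). DEPTOR, an inhibitor of mTOR, rose from 0.655 ± 0.132 to 4.49 ± 0.418 CPM (2.77), and PHLPP1, a phosphatase of AKT, rose from 19.8 ± 2.30 to 52.2 ± 14.2 CPM (1.40). These 4 calls held in all 20 alternatives.

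Of 10 tested RNA-binding proteins and other regulators of IGF RNAs, 2 rose and 2 fell with the inhibitor against Wnt3a. H19, the noncoding RNA that shares its imprinted locus with IGF2, fell from 16.5 ± 6.57 to 3.32 ± 0.346 CPM (-2.31), and it was at 8.85 ± 2.2 CPM in vehicle cells. IGF2BP2, which binds IGF2 RNA, rose from 43.3 ± 3.68 to 70.7 ± 3.41 CPM (0.71), and IGF2BP3 fell from 46.7 ± 8.44 to 29.4 ± 3.87 CPM (-0.67). The IGF2BP3 call ended without Wnt3a replicate 3 (edgeR adjusted p = 0.051) and without inhibitor replicate 2 (edgeR adjusted p = 0.0541). CTCF, which binds the control region between IGF2 and H19, rose by 0.52, with an adjusted p of up to 0.399 over the alternatives.

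**Figure D5:**
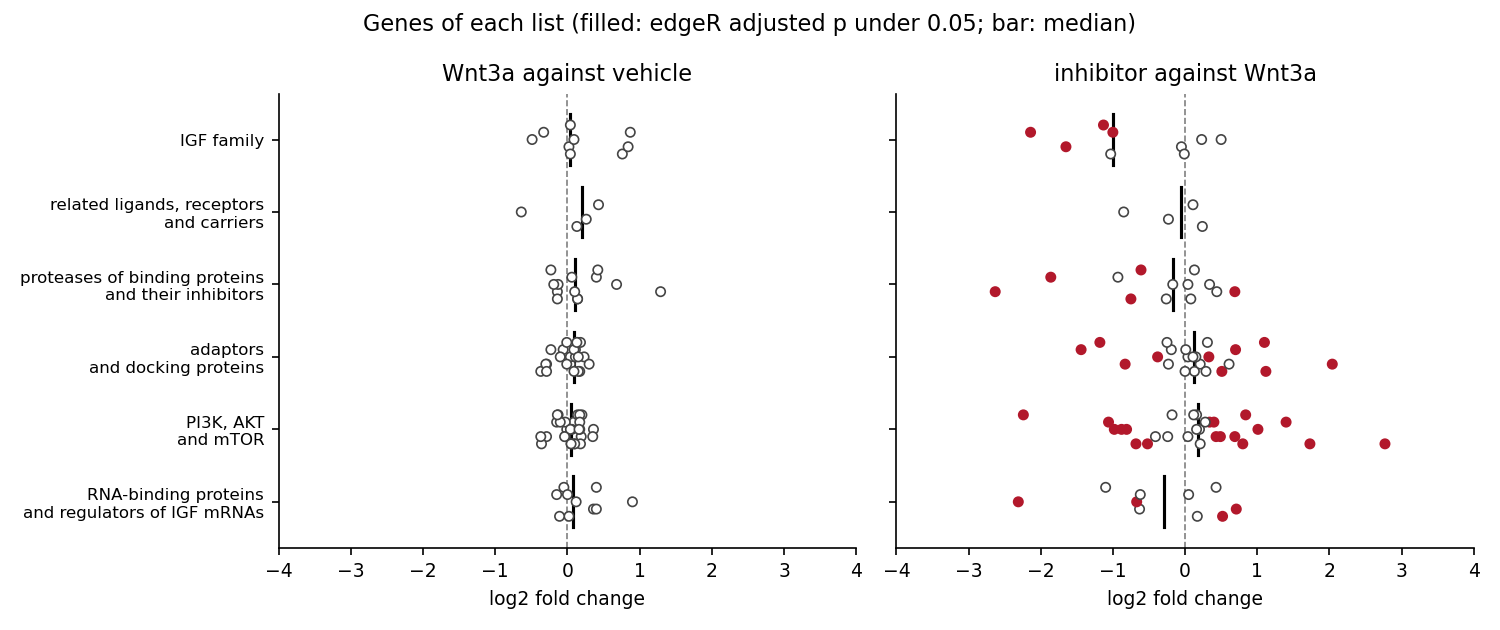
The log2 fold change (horizontal axis) of each tested gene of the family and of the 5 pathway lists, for Wnt3a against vehicle (left) and inhibitor against Wnt3a (right), with the median of each list (bar). Filled points passed the edgeR threshold: none at the left, and at the right 4 of the family, all lower, beside 20 higher and 17 lower genes of the lists.

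The genes whose pattern was most like that of IGF1R were taken from 12866 genes of at least 1 CPM on average, by Pearson's r of log2 CPM over the 9 libraries, which share 3 groups. They were WWTR1 (0.979), NR4A3 (0.967) and RERE (0.967), and 8 genes had an r over 0.95. For IGFBP3 they were NBPF9 (0.994), TMOD2 (0.985) and ZNF182 (0.983), and 185 genes had an r over 0.95.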

How the data were processed

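The authors made the gene tables with Trimmomatic 0.36, STAR 2.5.2a and RSEM 1.2.31 on base calls of CASAVA 1.8.2 and build hg38, per the submitters' processing notes. Annotation release and strand setting: not given in the sources used here. The deposited columns used, per the file headers, were the expected count, TPM and effective length of a gene. Second rows of 45 pseudoautosomal genes were summed with their partners. GENCODE 29, which held 57895 (99.4%) of the 58233 gene IDs, gave names and coordinates.

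Expected counts were rounded and kept by filterByExpr (17880 genes). TMM scaling gave factors of 0.876 to 0.914 in inhibitor libraries, below those of the others (1.02 to 1.10). edgeR 4.0.16 in R 4.3.3 fitted 1 quasi-likelihood model to all 9 libraries, and tests were 2-sided. The common biological coefficient of variation was 21.5%. The SE is the log2 fold change over the square root of F. The 20 alternatives were RLE factors, library totals alone, other filters, DESeq2 1.42.0, limma 3.58.1 (voom, and trend on log2(TPM + 1) and log2(TPM + 0.1)), the replicate block, an effective-length offset, a fit of the 2 groups alone and leaving out each library. All 10 family genes are named, with the 3 genes of smallest adjusted p of each list in inhibitor against Wnt3a and exceptions stated; some of the genes this rule or the treatment check names are not reported here. The genes and lists were chosen with earlier results of these data known.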

Additional observations from a re-analysis of the deposited data

How the results depend on the processing

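For Wnt3a against vehicle the number of family genes past the threshold was 0, and it was 2 with all genes of at least 1 count, 1 with DESeq2, 1 with only the 2 groups compared and 0 to 1 when 1 library was left out (1 without inhibitor replicate 1). Of the 78 pathway genes, 0 passed, but 1 did with library totals alone, 2 with all genes of at least 1 count, 1 with genes of at least 1 CPM in 3 libraries, 2 with DESeq2 and 0 to 1 with 1 library left out. The genes called over all 17880 went from 75 to 261 with DESeq2, 259 with all genes of at least 1 count and 23 to 159 with 1 library left out. For the inhibitor comparisons, the counts of family and pathway genes stayed within 1.5 times. The values that changed sign did not pass the threshold in the reported fit. With the offset for effective length, IGF1 was at 0.07 (inhibitor against Wnt3a) and 0.48 (inhibitor against vehicle), IGF1R at -0.035 and IGF2R at -0.029 (Wnt3a against vehicle) and IGFBP6 at -0.017 (inhibitor against vehicle). On log2(TPM + 1) and log2(TPM + 0.1), inhibitor against vehicle gave 0.17 and 0.18 for IGF1, -0.27 and -0.28 for IGFBP4 and -0.22 and -0.24 for IGFBP6. With library totals alone, IGF2R was at -0.021 (inhibitor against Wnt3a), and IGFBP4 and IGFBP6 at -0.20 and -0.22 (inhibitor against vehicle). IGFBP4 was at 0.0062 with RLE factors and 0.01 with DESeq2 (inhibitor against Wnt3a), and at -0.0094 with genes of at least 1 CPM in 3 libraries and -0.00011 with limma-voom (inhibitor against vehicle). IGFBP6 was at -0.0083 with all genes of at least 1 count and -0.03 with genes of at least 1 CPM in 3 libraries (inhibitor against vehicle). With 1 library left out, Wnt3a against vehicle ran from -0.15 to 0.11 for IGF1R, -0.0021 to 0.15 for IGF2R, -0.16 to 0.15 for IGFBP3 and -0.031 to 0.18 for IGFBP4. Inhibitor against Wnt3a ran from -0.14 to 0.12 for IGF1R and -0.18 to 0.19 for IGFBP4. Inhibitor against vehicle ran from -0.11 to 0.09 for IGF1R, -0.14 to 0.24 for IGFBP4 and -0.10 to 0.20 for IGFBP6. The cause of these changes of sign was not tested.

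Replicate numbers are shared between groups. Deviations of same-numbered libraries correlated at -0.182 to 0.416 and those of other pairs at -0.453 to 0.306. The highest were of same-numbered libraries: vehicle and Wnt3a replicates 2 (0.416) and 3 (0.353), and Wnt3a and inhibitor replicates 1 (0.325). The lowest same-numbered value was that of vehicle and inhibitor replicates 2. The ranges overlapped, and the reported fit did not take the numbers as pairs. Whether they are pairs is not settled by these values. With the number as a replicate block, 0, 5 and 5 family genes and 0, 42 and 43 pathway genes passed in the 3 comparisons, IGF1 among them for inhibitor against Wnt3a (-1.05, edgeR adjusted p = 0.0142). Depth was lowest for IGF2, followed by IGFBP6 with 106 to 225 expected counts per library, and in inhibitor libraries IGFBP7 had 163 to 219 and IGFBP3 220 to 314.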
